A study of Mus musculus with 18 samples.

Results

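The stretch of mouse chromosome 10 from 75 to 82 Mb (mm8 coordinates) lies in the proximal part of the gene-dense cytogenetic band 10qC1, and its contacts with the Ifng gene on the same chromosome are described here. Its members are all array probes that start from 75 Mb up to 82 Mb, a rule that uses position and no measured value though earlier results of these data were known, which gave 807 of the 384942 probes on the array and 14 of the 5021 bins of 500 kb that were tested. The bin that holds the bait, Ifng, lies at 117.5 to 118.0 Mb. The near edge of the stretch, at 82 Mb, is 35.5 Mb from it and the far edge, at 75 Mb, is 42.5 Mb from it. The contacts were measured by 4C, in which chromatin is crosslinked, cut with HindIII and ligated, and the DNA joined to a chosen bait is amplified and read on an array. Each probe value is the log2 ratio of Cy5-labelled 4C DNA over Cy3-labelled digested genomic DNA. For the Ifng bait it was centred here on the median of the probes off chromosome 10. Thus 0 is the typical level of the other chromosomes. The title of the series places the work in the study of STAT proteins and nuclear architecture in differentiating T cells.

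The Ifng bait was measured in 5 groups of 2 arrays. These were 3T3-L1, a mouse line of preadipocytes derived from embryonic fibroblasts, T helper 1 (Th1) cells from Stat4 knockout mice, Th1 cells, T helper 2 (Th2) cells, and naive CD4 T cells. The cell type field of the labels gives primary CD4 T cells for the 3T3-L1 arrays too, against their title and source name, and the protocol speaks of adherent cells. No strain, age, sex or culture time is given, a Stat4 genotype is named for the knockout group alone, and the knockout allele is not described. The design text counts an array from a pool of replicates without naming it, so p-values measure the spread between these arrays. In each Ifng group but Th1 the sorted values of the 2 arrays nearly match. The spread within those pairs may therefore be too small and the p-values too low, which was not tested. The 8 arrays with Il4 on chromosome 11 as bait (Stat6 knockout Th2, Th2, Th1 and naive cells, 2 arrays each) serve below as a bait on another chromosome. They were centred on the median of the probes off chromosome 11.

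Ifng encodes interferon gamma, the cytokine that defines Th1 cells, and it is silenced in Th2 cells. STAT4 is activated by interleukin 12 and drives the Th1 programme. A gene contacts its own chromosome most, contacts fall with distance along it, and active gene-dense stretches tend to meet other active stretches in the nucleus, while gene-poor stretches tend to meet each other.

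Gene density could be counted by band only, since the gene table belongs to another build (GRCm38.p6) than the arrays. Band 10qC1 spans 74542606 to 88764550 in mm8, and the stretch covers 49.2% of it. The band holds 315 protein-coding genes, or 22.0 per Mb, rank 2 of the 17 bands of chromosome 10 after 10qD3 with 27.5 per Mb, and rank 19 of 395 bands of the genome. In GRCm38.p6 the 7-Mb window of chromosome 10 with the most genes lies inside this band, with 247 genes against a median of 38 over 18 adjoining windows of that length. Of 28 genes listed as landmarks, 27 lie in the band away from its edges. From the centromeric side they include Mif, a cytokine of activated T cells and macrophages, Smarcb1, a subunit of the SWI/SNF chromatin remodeller, Itgb2, the common beta subunit of leukocyte integrins, Aire, which drives expression of tissue antigens in the thymus, and Icosl, the ligand of the T cell costimulator ICOS. Then follow Bsg, the neutrophil protease genes Prtn3 and Elane, Cfd, which encodes the adipocyte product adipsin, Stk11, a kinase upstream of AMP-activated kinase, Tcf3, an E protein of lymphocyte development, Dot1l, a histone methyltransferase, Gadd45b, a stress protein that promotes interferon gamma production in mouse Th1 cells, Zbtb7a, Pias4, a SUMO ligase of the family of inhibitors of activated STAT, Eef2, S1pr4, a lymphocyte receptor of sphingosine 1-phosphate, and Gna11. A cluster that holds 10 olfactory receptor genes, silent in T cells, lies between Cstb and Bsg. None of these genes was assigned to a bin of the arrays, and a value below belongs to a stretch and to no single gene.

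Promoter sequences of the band were searched for the palindrome TTCNNNGAA that STAT dimers bind, since the series concerns STAT binding. In RefSeq promoters of GRCm38.p6, from 250 bases before to 50 after a start, 25 of the 320 promoters in the band held it (7.81%), against 1636 of 21262 promoters of all protein-coding genes (7.69%), reading the motif as the same on both strands. None of the 30 promoters of landmark genes found in the table (23 genes) held it. The band promoters had a median GC content of 59.7%, against 56.3% for all, and a median of 16.5 CpG dinucleotides, against 13. The HindIII site AAGCTT, where the 4C ligation takes place, lay in 4.69% of the band promoters, against 6.69% of all, and does not overlap the STAT motif. Shown as examples that hold the motif are the promoters of Gzmm, which encodes granzyme M of cytotoxic lymphocytes (chr10:79688770-79689069, plus strand), and of Sbno2, a transcriptional regulator (chr10:80102653-80102952, minus strand). They were picked for the motif and for what the genes do, and their sequences show the contrast within the band between an AT-richer and a CpG-rich promoter. The motif is in capitals, and its presence is a match of letters, with no binding measured here.
Gzmm: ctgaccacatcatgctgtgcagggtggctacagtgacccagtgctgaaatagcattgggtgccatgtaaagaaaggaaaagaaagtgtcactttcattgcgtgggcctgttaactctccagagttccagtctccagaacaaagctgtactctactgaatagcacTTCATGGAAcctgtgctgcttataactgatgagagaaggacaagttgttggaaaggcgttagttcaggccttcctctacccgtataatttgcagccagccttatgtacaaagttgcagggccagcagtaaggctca
Sbno2: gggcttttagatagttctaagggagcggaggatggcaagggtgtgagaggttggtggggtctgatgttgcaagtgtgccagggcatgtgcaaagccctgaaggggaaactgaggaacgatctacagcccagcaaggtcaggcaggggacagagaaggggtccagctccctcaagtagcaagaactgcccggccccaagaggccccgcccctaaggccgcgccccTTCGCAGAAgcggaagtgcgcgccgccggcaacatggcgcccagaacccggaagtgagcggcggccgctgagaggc

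The array samples this stretch thinly. It carried 115 probes per Mb, against 155 over chromosome 10, and was the sparsest of the 17 adjoining windows of 7 Mb, the other 16 of which held 1048 to 1226 probes. The median distance between probe starts was 6137 bp, against 4990 bp over the chromosome. The bin at 81.0 to 81.5 Mb had 22 probes, and no probe starts between 81338265 and 81461825. The arrays also differed in how they resembled each other. The second Th1 array resembled the second Th2 array of the Il4 bait over all probes (r = 0.35, over 384942 probes) more than it resembled the first Th1 array (r = 0.15). Within the stretch that order was turned, with r = 0.22 for the Il4 array and r = 0.31 for the first Th1 array. Values for each array are therefore given for the bins tested, and counts of calls without the second Th1 array are given for each comparison that uses it.

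The mean over the 807 probes was high in naive cells, intermediate in the helper cells and near the level of other chromosomes in 3T3-L1. It was 0.14 and 0.15 in the 3T3-L1 arrays, 0.57 and 0.68 in the Stat4 knockout Th1 arrays, 0.57 and 0.47 in the Th1 arrays, 0.56 and 0.56 in the Th2 arrays, and 1.07 and 1.13 in the naive arrays, all as log2 ratios. The naive arrays were thus apart at the top and the 3T3-L1 arrays apart at the bottom, whereas Stat4 knockout Th1, Th1 and Th2 arrays lay together between 0.47 and 0.68. Group means were 0.63 ± 0.08 in Stat4 knockout Th1, 0.52 ± 0.07 in Th1, 0.56 ± 0.0013 in Th2 and 1.10 ± 0.04 in naive T cells (SD, n = 2 each), and in the order Stat4 knockout Th1, Th2, Th1 neighbours differed by no more than the SD of the more variable group. With Il4 as the bait the same probes averaged 0.06 to 0.23 over 8 arrays, which is near the 3T3-L1 values and below each Ifng array of a T cell group.

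**Figure D1:**
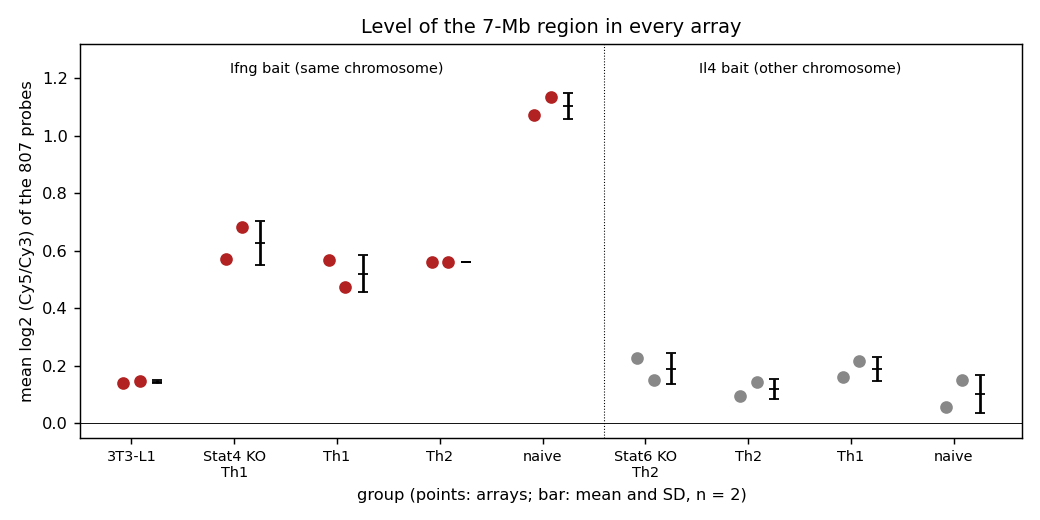
Mean log2 (Cy5/Cy3) of the 807 probes in each array (points), with the group mean and SD of 2 arrays beside them, for the Ifng bait on the left and the Il4 bait on the right. The naive Ifng arrays lie at 1.07 and 1.13, the other T cell Ifng arrays between 0.47 and 0.68, and the 3T3-L1 arrays at 0.14 and 0.15, within the range of the Il4 arrays.

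The level next to the bait also differed between the arrays, and its part in the order above was not tested. Probes that start 1 to 2 Mb from the bin of the bait averaged 1.17 ± 0.015 in 3T3-L1, 1.70 ± 0.0049 in Stat4 knockout Th1, 0.91 ± 0.32 in Th1, 2.61 ± 0.20 in Th2 and 2.22 ± 0.11 in naive T cells (SD, n = 2 each). The ranking of the stretch within its own chromosome gave another order. Among the 249 tested bins of chromosome 10, the median percentile of the 14 bins was 49.5 ± 2.4 in 3T3-L1, 71.9 ± 1.7 in Stat4 knockout Th1, 83.2 ± 0.43 in Th1, 64.6 ± 3.0 in Th2 and 71.5 ± 2.6 in naive T cells. The Th1 arrays, lowest of the T cell groups by their mean, thus ranked the stretch highest along the chromosome.

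**Figure D2:**
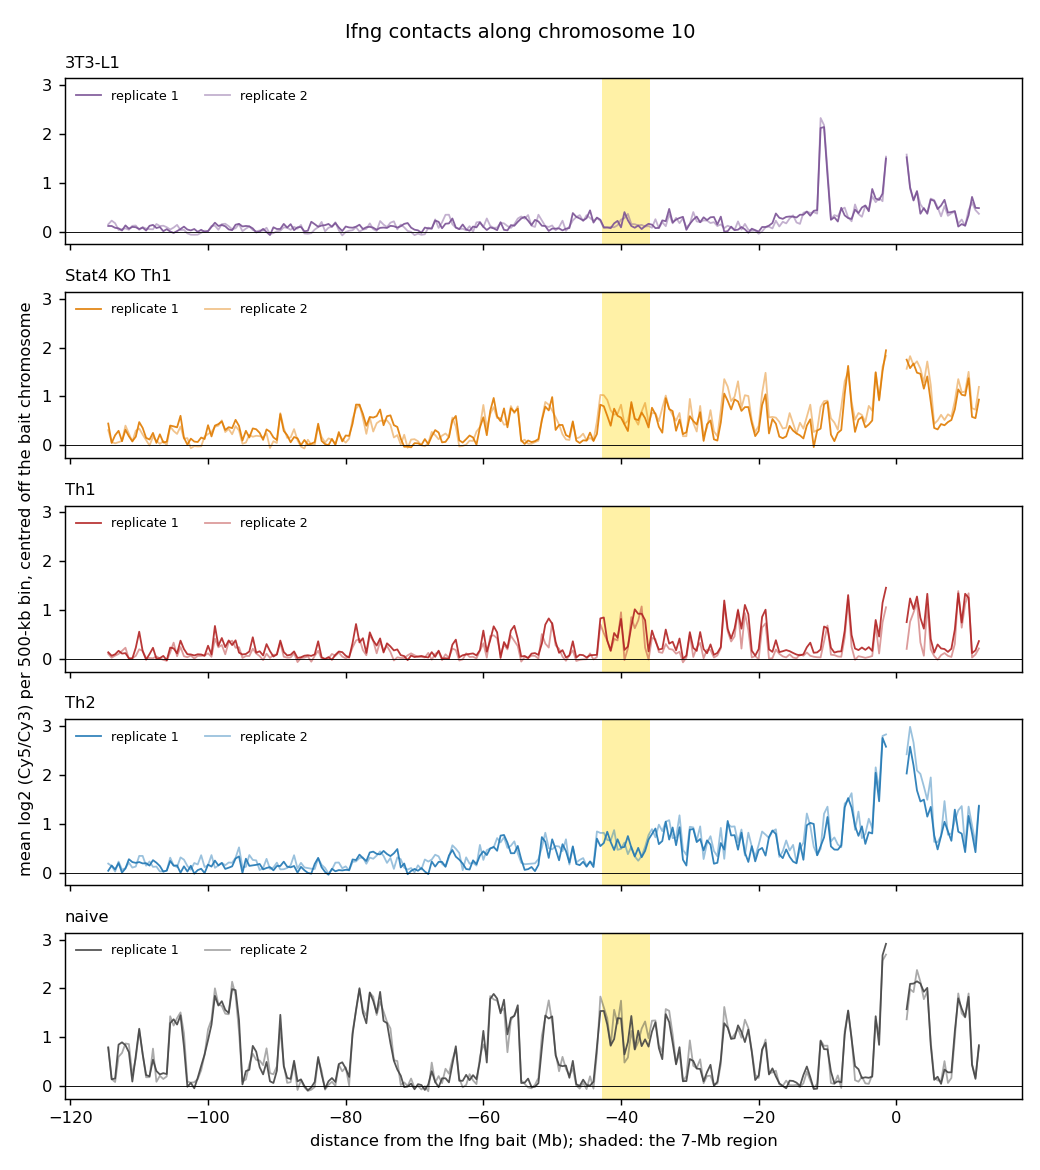
Mean log2 (Cy5/Cy3) per 500-kb bin along chromosome 10 against the distance from the Ifng bait (Mb), both replicates of each group, with the stretch shaded. It is part of a run of raised bins in the T cell groups, directly after a low valley, and its bin means in 3T3-L1 lie between 0.08 and 0.34.

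Strong single probes were unevenly spread in the same way. The 5% of probes with the highest ratios in an array made up 7.68% and 7.19% of the stretch in the 3T3-L1 arrays, 26.5% and 29.1% in Stat4 knockout Th1, 31.5% and 22.1% in Th1, 18.8% and 20.6% in Th2, and 44.0% and 46.6% in naive cells. In the rest of chromosome 10 that share was 13.4 ± 0.16% in 3T3-L1, 22.3 ± 0.35% in Stat4 knockout Th1, 15.5 ± 4.8% in Th1, 19.8 ± 3.0% in Th2 and 29.8 ± 0.80% in naive T cells. The stretch was therefore above its chromosome in Stat4 knockout Th1, Th1 and naive cells, level with it in Th2 and below it in 3T3-L1. Probes in the highest 5% of both replicates numbered 11 of 807 in 3T3-L1, 86 in Stat4 knockout Th1, 102 in Th1, 52 in Th2 and 196 in naive T cells. No matching count is given for the rest of chromosome 10, so these numbers do not show whether the stretch stands out.

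Inside the stretch the groups did not share a profile. Naive cells had the highest mean in 11 of the 14 bins, Th1 in 2 and Th2 in 1, and 3T3-L1 had the lowest in 11 and Th1 in 3. The bin with the highest mean over the 10 arrays, at 75 to 75.5 Mb, had 0.09 and 0.07 in 3T3-L1, 0.80 and 1.03 in Stat4 knockout Th1, 0.85 and 0.52 in Th1, 0.60 and 0.81 in Th2, and 1.54 and 1.61 in naive cells. The bin with the lowest mean, at 78.0 to 78.5 Mb, had 0.40 and 0.28 in 3T3-L1, 0.43 and 0.44 in Stat4 knockout Th1, 0.18 and -0.02 in Th1, 0.52 and 0.61 in Th2, and 0.65 and 0.48 in naive cells. This bin, the lowest of the stretch in naive cells, was the highest in 3T3-L1, and both 3T3-L1 arrays stood above both Th1 arrays there. Bin means ranged from 0.08 to 0.34 in 3T3-L1, from 0.40 to 0.91 in Stat4 knockout Th1, from 0.07 to 1.00 in Th1, from 0.32 to 0.75 in Th2 and from 0.57 to 1.57 in naive cells. Naive and Th1 cells therefore had the widest range over the bins, Stat4 knockout Th1 and Th2 cells narrower ones and 3T3-L1 the narrowest. The replicates' bins correlated at r = 0.56 in 3T3-L1, 0.62 in Stat4 knockout Th1, 0.80 in Th1, 0.34 in Th2 and 0.69 in naive T cells, as a description over 14 neighbouring bins.

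**Figure D3:**
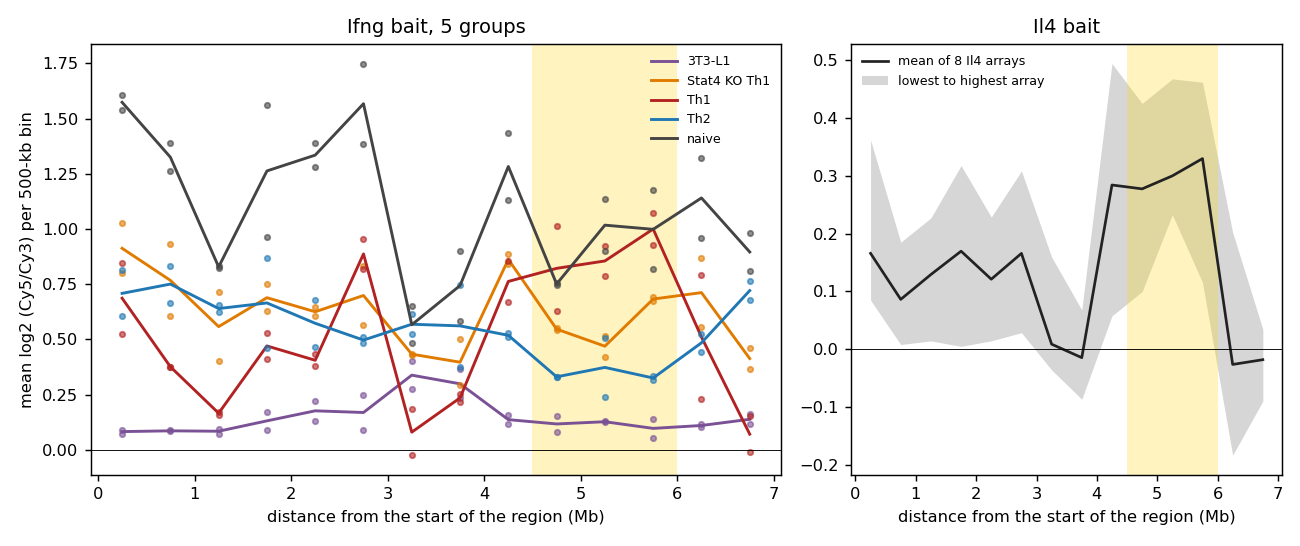
Mean log2 (Cy5/Cy3) per 500-kb bin against the distance from the start of the stretch (Mb), with group means as lines and arrays as points for the Ifng bait (left), and the mean and full range of the 8 Il4 arrays (right, on its own scale). In the shaded part from 79.5 to 81.0 Mb, marked after its values were seen, Th1 cells reach the naive level while Th2 cells are at their lowest.

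The profiles of the T cell groups can be set side by side over the 14 bins. Across bins the Th1 and Th2 means ran opposite to each other (r = -0.68), whereas those of Stat4 knockout Th1 and naive cells ran alike (r = 0.81). The Th1 means ran like the mean of the Il4 arrays (r = 0.83) and the Th2 means against it (r = -0.58), although the Il4 levels were far lower, at -0.03 to 0.33 per bin. The 3T3-L1 means ran against those of Stat4 knockout Th1 (r = -0.58), Th1 (r = -0.44) and naive cells (r = -0.48). Neighbouring bins share domains and probe density and are not independent, so these values describe this stretch.

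Th1 cells were lower than naive cells over most of the stretch, apart from its distal middle, where no bin passed. Of the 14 bins, 11 fell and 0 rose in Th1 cells (limma, Benjamini-Hochberg adjusted p under 0.05 over 5021 bins), and at an unadjusted p under 0.05 the counts were the same. The background for these calls is 11.8% of all bins, with 3.96% higher and 7.79% lower, and 53.4% of the bins of chromosome 10, all lower. The groups did not overlap in 11 of the 14 bins, against 62% of all bins. The median change over the 14 bins was -0.65, against -0.27 over the other 235 bins of chromosome 10 and 0.02 over all bins. From 75 to 79.5 Mb the Th1 arrays had 0.48 and 0.43 and the naive arrays 1.15 and 1.18, without overlap in any of its 9 bins. That stretch fell by 0.71 on the log2 scale, with limma adjusted p between 6.91e-09 and 0.00395 over its bins. From 81.0 to 82 Mb the Th1 arrays had 0.47 and 0.11, against 0.88 and 1.15 in naive cells, a change of -0.73 with limma adjusted p of 4.93e-08 and 0.00603. The 3 bins between them, from 79.5 to 81.0 Mb, did not pass, with changes of 0.07, -0.16 and 0.00 and limma adjusted p of 0.556, 0.170 and 0.993. There the Th1 arrays had 0.95 and 0.83 and the naive arrays 0.90 and 0.94, so the groups were mixed. These 3 bins were called in either direction elsewhere. The middle bin was lower with extreme probes left out (-0.32, limma adjusted p 0.00972). The number of higher bins was 1 with the scan series as a block or without the second Th1 array, 2 under quantile normalization or centring on chromosome 10, and 3 when scaled by the spread off chromosome 10 (mean change 0.75) or centred and scaled on it (1.47).

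The fall in Th1 cells depends on the scale on which arrays are compared. Each bin's change moves by 0.31 upward when arrays are centred on chromosome 10, which gave 2 bins higher and 11 lower. In that fit limma's adjustment hardly raised p near the threshold (0.0538 became 0.0562 in 1 bin). No background share is given for this centring or for the alternatives that follow. The counts thus do not show whether the stretch stands out under them. Quantile normalization gave 2 higher and 6 lower, and scaling by the spread of bins off chromosome 10 gave 3 higher and 1 lower. Centring and scaling on chromosome 10 gave 4 higher and 0 lower, with a median change of 0.37. With the scan series as a block 1 bin was higher and 8 lower, and without the second Th1 array 1 was higher and 10 lower. Within the scan series that holds the first Th1 array and both naive arrays, the stretch had 0.58 in Th1 and 1.09 in naive cells, and the bins from 79.5 to 81.0 Mb had 0.95 and 0.92, as a bin mean without a test.

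Th2 cells were also lower than naive cells, and in part at other places. In total 10 bins fell and 0 rose (limma adjusted p under 0.05), and 12 were lower and 0 higher at an unadjusted p under 0.05. The background is 5% of all bins, with 1.61% higher and 3.39% lower, and 59% of the bins of chromosome 10, with 22.5% higher and 36.5% lower. The groups did not overlap in 12 of the 14 bins, against 50% of all bins. The median change was -0.62, against -0.03 over the rest of chromosome 10 and 0.03 over all bins. From 75 to 76.0 Mb the Th2 arrays had 0.72 and 0.74 and the naive arrays 1.40 and 1.50, a change of -0.72 (limma adjusted p 2.24e-06 and 8.50e-05). From 76.5 to 78.0 Mb the Th2 arrays had 0.55 and 0.61, against 1.25 and 1.53 in naive cells, a change of -0.81 (limma adjusted p between 1.29e-07 and 0.0126). In both the Th2 arrays lay well below the naive ones. From 79.0 to 81.5 Mb they had 0.42 and 0.39, against 1.02 and 1.06 in naive cells, a change of -0.63 (limma adjusted p between 1.50e-06 and 0.00536). This last stretch includes the 3 bins in which the difference of Th1 from naive cells did not pass. The bin at 78.0 to 78.5 Mb, the lowest of the naive profile, had a change of 0.00. Centring and scaling on chromosome 10 left 0 bins called, and 1 bin at an unadjusted p under 0.05. With the scan series as a block 6 bins were lower. Both naive arrays share a series with the first Th1 array, and both Th2 arrays share another with the second. Th2 and naive cells are thus linked in that fit only through 1 Th1 array in each series. It cannot separate cell type from series without relying on the second Th1 array.

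The direct comparison of Th1 with Th2 cells split the stretch into pieces of opposite sign. Of the 14 bins 4 rose and 4 fell in Th1 cells (limma adjusted p under 0.05), with a median change of -0.09 against -0.14 over the rest of chromosome 10. The background is 2.65% of all bins and 42.6% of those on chromosome 10. For higher calls it is 0.239% of all bins, 12 in number, and 4.42% of the chromosome's bins, and for lower calls it is 2.41% and 38.2%. From 79.5 to 81.0 Mb the Th1 arrays had 0.95 and 0.83 and the Th2 arrays 0.38 and 0.30, and the groups did not overlap in any of the 3 bins. The change was 0.55, with limma adjusted p between 3.05e-05 and 0.00105. It stayed past the threshold in at least 1 of the 3 bins in all 16 alternatives tried, with values from 0.39 to 1.70. On a 200-kb grid Th1 means in this part ran from 0.50 to 1.20 and Th2 means from 0.26 to 0.48, and 4 of 7 such bins passed. At 77.5 to 78.0 Mb, the remaining higher bin, added to the 4 named parts after its value was seen, Th1 cells had 0.82 and 0.96 and Th2 cells 0.51 and 0.48 (change 0.39, limma adjusted p 0.0359). This last call was lost in each of the 4 fits that leave out 1 array (limma adjusted p 0.0501 to 0.248), with extreme probes left out (change 0.12), with the median per bin (0.12), with eBayes trend and robust settings and with the scan series as a block. Without the second Th1 array 3 of the 14 bins were higher and 3 lower.

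On either side of this raised part Th1 cells were lower than Th2 cells. From 75.5 to 76.5 Mb the Th1 arrays had 0.27 and 0.27 and the Th2 arrays 0.73 and 0.66, a change of -0.42 (limma adjusted p 0.000285 and 0.0118). At 78.0 to 78.5 Mb they had 0.18 and -0.02, against 0.52 and 0.61 in Th2 cells, a change of -0.49 (limma adjusted p 0.000161). At 81.5 to 82 Mb the Th1 arrays had 0.15 and -0.01, against 0.68 and 0.77 in Th2 cells, a change of -0.65 (limma adjusted p 3.15e-06). In both bins the second Th1 array was at the level of other chromosomes and the first somewhat above it, and both lay below the Th2 arrays. Arrays did not overlap in 11 of the 14 bins, and they did not in 51.4% of all bins. The split of calls moved with scaling, to 5 higher and 3 lower under quantile normalization and 5 and 1 when scaled by the spread off chromosome 10. It was 6 and 1 when centred and scaled on chromosome 10. Centring alone on chromosome 10, where each bin moves by 0.19, gave 7 and 4, without a background share to set them against. With the median of a bin's probes in place of the mean, 1 bin was higher and 0 lower, and on the 200-kb grid 6 of 34 bins were higher and 4 lower. Within the scan series of the second Th1 array and both Th2 arrays, the part from 79.5 to 81.0 Mb had 0.83 in Th1 and 0.34 in Th2 cells, and all 3 bins were higher.

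The part from 79.5 to 81.0 Mb was set against the other 11 bins after its values had been seen, so this is a description without a test. It averaged 0.11 ± 0.04 in 3T3-L1, where the other bins had 0.16 ± 0.0013. In Stat4 knockout Th1 cells it averaged 0.57 ± 0.015, with 0.64 ± 0.10 elsewhere. In Th1 cells it was 0.89 ± 0.09, with 0.42 ± 0.07 elsewhere, and in both Th1 arrays it was higher by 0.46 to 0.48. In Th2 cells it was 0.34 ± 0.06, with 0.61 ± 0.0095 elsewhere, and in naive cells 0.92 ± 0.03, with 1.14 ± 0.05 elsewhere (SD, n = 2 for each). The relief was therefore turned upward in the group mean of Th1 cells alone among the Ifng groups. All 8 Il4 arrays were also higher there than in the other 11 bins, by 0.14 to 0.29, so Th1 cells shared this shape with a bait on chromosome 11.

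Stat4 knockout Th1 cells were compared with Th1 cells to see what the loss of STAT4 changes. Of the 14 bins 4 rose and 1 fell in the knockout (limma adjusted p under 0.05), and at an unadjusted p under 0.05 the counts were 6 and 3. The background is 1.89% of all bins and 28.1% of those on chromosome 10. For higher calls it is 1.87% and 27.7%, and for lower calls 0.0199% and 0.402%. The groups did not overlap in 10 of the 14 bins, against 46.6% of all bins. The median change of 0.21 was close to the 0.17 over the rest of chromosome 10. From 75.5 to 76.5 Mb the knockout arrays had 0.50 and 0.82, against 0.27 and 0.27 in Th1 cells, a change of 0.39 (limma adjusted p 0.00437 and 0.0133). At 78.0 to 78.5 Mb they were at 0.43 and 0.44, against 0.18 and -0.02 in Th1 cells, a change of 0.35 (limma adjusted p 0.00835). At the distal end, 81.5 to 82 Mb, both knockout arrays were higher, with 0.37 and 0.46, against 0.15 and -0.01 in Th1 cells, a change of 0.34 (limma adjusted p 0.00663). The 4 higher calls of 14 are a share near that of the whole chromosome.

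The single lower bin lies inside the part that was raised in Th1 cells. Its bin, 80.0 to 80.5 Mb, gave 0.52 and 0.42 in the knockout and 0.92 and 0.79 in Th1 cells, a change of -0.39 ± 0.08 (SE; limma adjusted p 0.0154). It was the only 1 of 5021 bins called lower in the knockout. Its neighbours at 79.5 and 80.5 Mb had changes of -0.28 and -0.32, which did not pass (limma adjusted p 0.0991 and 0.0556). Over the 3 bins the knockout arrays had 0.58 and 0.56, between the Th1 arrays with 0.95 and 0.83 and the Th2 arrays with 0.38 and 0.30. The call ended in 6 of 15 alternatives, among them leaving out the extreme probes (-0.11, adjusted p 0.42), the median per bin, the second knockout array left out (adjusted p 0.15) and the first Th1 array left out (adjusted p 0.14). The other scalings gave more lower bins and ended some or all of the higher calls. Quantile normalization gave 0 higher and 4 lower bins, and scaling by the spread off chromosome 10 gave 0 and 3. Centring and scaling on chromosome 10 gave 0 and 5. Centring alone on chromosome 10, which moves each bin by -0.22, gave 2 and 4, without a background share to set them against. Without the second Th1 array 0 bins were higher and 2 lower. The knockout arrays have a leading serial number of their own, so that series and genotype cannot be told apart.

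**Figure D4:**
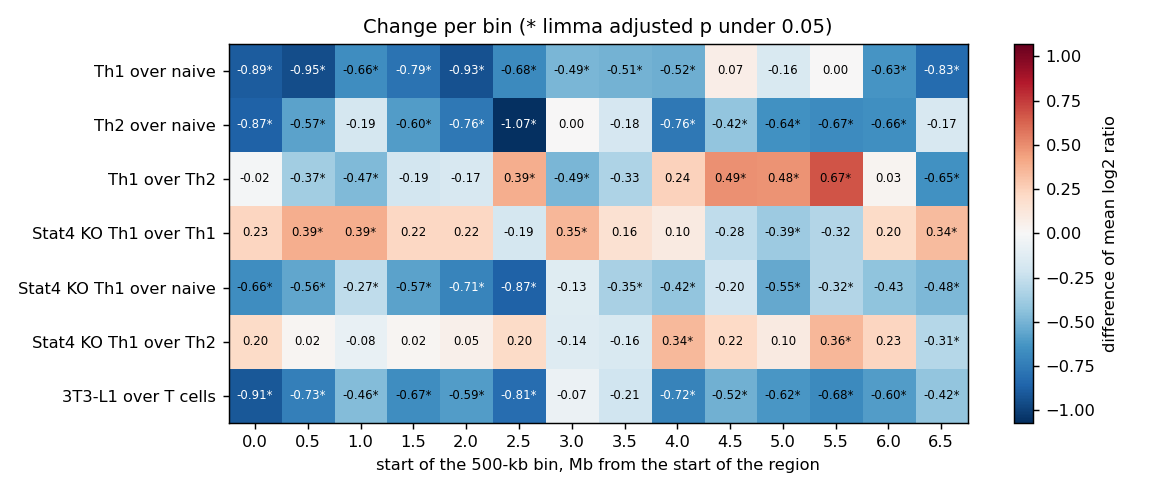
Difference of the mean log2 ratio in each 500-kb bin (columns, by distance from the start of the stretch in Mb) for 7 comparisons (rows, the first-named group over the second), with an asterisk where limma's adjusted p is under 0.05. The row for Th1 over Th2 changes sign along the stretch, and the rows against naive cells are negative in all but a few bins.

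Against naive cells the knockout resembled the other helper cells in direction. Of the 14 bins 11 fell and 0 rose (limma adjusted p under 0.05), 13 were lower at an unadjusted p under 0.05, and all 14 had groups without overlap. The background is 9.12% of all bins, with 5.72% higher and 3.41% lower, and 49.8% of those on chromosome 10, with 10% higher and 39.8% lower. Groups did not overlap in 55.6% of all bins. The median change was -0.46, against -0.10 over the rest of the chromosome. The proximal part, 75 to 78.0 Mb, gave 0.62 and 0.80 in the knockout and 1.23 and 1.40 in naive cells, a change of -0.61 (limma adjusted p between 4.46e-07 and 0.0243). From 78.5 to 79.5 Mb the change was -0.38 (limma adjusted p 0.00199 and 0.0451). The bins from 80.0 to 81.0 Mb gave 0.59 and 0.56 in the knockout, against 0.98 and 1.04 in naive cells, a change of -0.43 (limma adjusted p 0.000241 and 0.0243). These are bins in which the difference of Th1 from naive cells did not pass. At 81.5 to 82 Mb the change was -0.48 (limma adjusted p 8.62e-05). Centring and scaling on chromosome 10 left 0 bins called (1 lower at an unadjusted p under 0.05) and scaling by the spread off it left 1.

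Few bins separated the knockout from Th2 cells. Here 2 of 14 bins rose and 1 fell (limma adjusted p under 0.05), against a background of 1.23% of all bins (0.717% higher, 0.518% lower) and 18.9% of those on chromosome 10 (8.43% higher, 10.4% lower). The groups did not overlap in 7 of the 14 bins, against 43.3% of all bins, and 4 were higher and 1 lower at an unadjusted p under 0.05. The median change was 0.07, against -0.04 over the rest of the chromosome. The first, 79.0 to 79.5 Mb, gave knockout values of 0.88 and 0.84, against 0.51 and 0.53 in Th2 cells, a change of 0.34 (limma adjusted p 0.0281). At 80.5 to 81.0 Mb they had 0.67 and 0.69, against 0.31 and 0.34 in Th2 cells, a change of 0.36 (limma adjusted p 0.0338). At 81.5 to 82 Mb they had 0.37 and 0.46, against 0.68 and 0.77 in Th2 cells, a change of -0.31 (limma adjusted p 0.0185). Scaling by the spread off chromosome 10 gave 1 higher and 0 lower bins, and quantile normalization 0 of either, with 3 at an unadjusted p under 0.05 in limma. The arrays do not overlap in the bins named, yet none of the 3 calls outlasted all alternatives, and leaving out the first knockout array or the second Th2 array left 0 calls, with 8 and 6 bins at an unadjusted p under 0.05 in limma.

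3T3-L1 cells, which do not express Ifng, had the lowest level over this stretch. Of the 14 bins 12 fell and 0 rose against the mean of Th1, Th2 and naive cells (limma adjusted p under 0.05), and 13 were lower at an unadjusted p under 0.05. The background is 12.2% of all bins, with 6.65% higher and 5.6% lower, and 62.2% of those on chromosome 10, with 8.43% higher and 53.8% lower. The groups did not overlap in 11 of the 14 bins, against 19.4% of all bins. The median change was -0.61, against -0.18 over the rest of chromosome 10. From 75 to 78.0 Mb the 3T3-L1 arrays had 0.12 and 0.12, and the 6 T cell arrays 0.47 to 1.40, a change of -0.70 (limma adjusted p between 8.73e-08 and 0.000487). From 79.0 to 82 Mb they had 0.11 and 0.13, and the T cell arrays 0.45 to 1.04, a change of -0.59 (limma adjusted p between 2.14e-07 and 0.00128). Both falls passed in at least part of their bins in all 20 alternatives, though not in every bin. With the median per bin 8 of the 14 bins were lower, and with 200-kb bins 28 of 34. The exceptions were the 2 bins from 78.0 to 79.0 Mb. At 78.0 to 78.5 Mb the 3T3-L1 arrays had 0.40 and 0.28, and the T cell arrays ran from -0.02 over a median of 0.50 to 0.65, a change of -0.07 (limma adjusted p 0.480). At 78.5 to 79.0 Mb they had 0.23 and 0.36, and the T cell arrays ran from 0.22 over a median of 0.48 to 0.90, a change of -0.21 (limma adjusted p 0.112). These are the highest bins of 3T3-L1 and low ones of naive and Th1 cells, and the Il4 arrays averaged 0.01 and -0.02 in them. Cell type and scan series go together for 3T3-L1, so no fit here can separate them. With the series as a random block 12 bins were lower, which for that reason is no test of the series. Without the second Th1 array 12 bins were lower as well.

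The stretch was then set beside other raised stretches of chromosome 10, as means over bins without a test. It had 0.15 in 3T3-L1, 0.63 in Stat4 knockout Th1, 0.52 in Th1, 0.55 in Th2 and 1.09 in naive T cells. Farther from the bait, at 38.5 to 45.5 Mb, the means were 0.09 in 3T3-L1, 0.52 in Stat4 knockout Th1, 0.28 in Th1, 0.32 in Th2 and 1.37 in naive T cells. At 57.0 to 63.0 Mb they were 0.13, 0.60, 0.35, 0.52 and 1.34 in the same order of groups. Nearer the bait, at 92.0 to 97.0 Mb, they were 0.08, 0.88, 0.62, 0.67 and 1.04. Naive cells thus had lower levels here than in those farther domains, while Th1 cells had higher ones, and the change of Th1 from naive cells was -0.57 here, -1.10 at 38.5 to 45.5 Mb, -0.99 at 57.0 to 63.0 Mb and -0.42 at 92.0 to 97.0 Mb. The valley at 71.0 to 74.0 Mb, next to the stretch, had 0.28 in 3T3-L1, 0.13 in Stat4 knockout Th1, 0.03 in Th1, 0.19 in Th2 and 0.03 in naive T cells, and there 3T3-L1 was the highest group.

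The boundary of the stretch at 82 Mb divides the band, and the distal part gave other counts in Th1 against Th2 cells. From 82 to 88.5 Mb the means were 0.20 in 3T3-L1, 0.57 in Stat4 knockout Th1, 0.25 in Th1, 0.77 in Th2 and 0.81 in naive T cells. Of the 13 bins there 11 were lower and 0 higher in Th1 than in Th2 cells (limma adjusted p under 0.05), where the stretch itself had 4 lower and 4 higher. The bin just outside the centromeric edge, at 74.5 to 75 Mb, was raised like the stretch, with 0.23 in 3T3-L1, 0.93 in Stat4 knockout Th1, 0.77 in Th1, 0.68 in Th2 and 1.69 in naive T cells. Over the 10 arrays it was also the bin outside the stretch whose levels ran most like the mean of the stretch (r = 0.98), followed on chromosome 10 by the bins at 61.5 (r = 0.98) and 66.5 Mb (r = 0.97). On other chromosomes the most alike were bins at 96.0 Mb of chromosome 3 (r = 0.96), 9.5 Mb of chromosome 2 (r = 0.95) and 128.5 Mb of chromosome 4 (r = 0.94), with group means of at most 0.28.

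Across the bands of chromosome 10, gene density and contact level went together in the T cell groups to different degrees. Over the 16 bands with tested bins, Spearman's rho between protein-coding genes per Mb and the mean level was 0.14 in 3T3-L1, 0.43 in Stat4 knockout Th1, 0.56 in Th1, 0.23 in Th2 and 0.70 in naive T cells, and 0.67 for the mean of the Il4 arrays. Pearson's r ordered the groups otherwise, with 0.22 in 3T3-L1, 0.48 in Stat4 knockout Th1, 0.63 in Th1, 0.37 in Th2 and 0.43 in naive T cells. Without 10qD2, the band of the bait, r was 0.39, 0.69, 0.74, 0.67 and 0.49, while the order by rho stayed the same. The ranking of the groups thus depends on the measure. Bands share the arrays and the distance from the bait, and these values describe 1 chromosome. Band 10qC1 as a whole averaged 0.18 in 3T3-L1, 0.60 in Stat4 knockout Th1, 0.39 in Th1, 0.66 in Th2 and 0.96 in naive T cells. The denser band 10qD3, close to the bait, averaged 0.37 in 3T3-L1, 0.85 in Stat4 knockout Th1, 0.56 in Th1, 0.92 in Th2 and 0.91 in naive T cells.

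**Figure D5:**
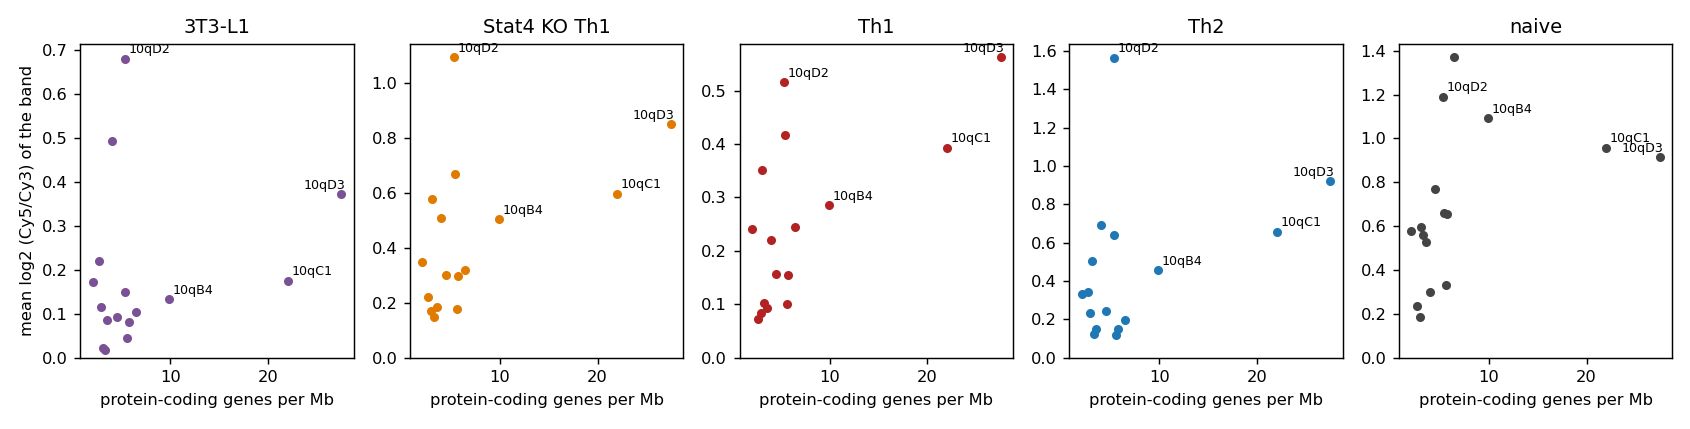
Mean log2 (Cy5/Cy3) of each of 16 bands of chromosome 10 against its protein-coding genes per Mb, with a panel and a scale for each group. Band 10qC1, at 22.0 genes per Mb, averages 0.18 in 3T3-L1 and 0.96 in naive cells, and 10qD2, the band of the bait, is high in every group at few genes per Mb.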

How the data were processed

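The deposited files hold 1 log2 ratio of Cy5 over Cy3 per probe and array. Scanner software, background correction, filters, log base and build are not given in the sources used here (base 2 was assumed). Once sorted, the 2 value lists of a replicate pair differed by at most 0.011 at 99.5% or more of the probes, except in the Ifng Th1 pair (42.8%) and the Il4 Th2 pair (10.8%). Coordinates are mm8 as inferred from the probes: probes ran beyond the chromosome length on 0 of 21 chromosomes in mm8, against 11 in mm7, 5 in mm9 and 8 in mm10. Groups came from titles and source names. The labels' protocol describes adherent cells and other baits, and 3T3-L1 arrays carry a T cell label. No column was left unassigned.

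The median of the probes off chromosome 10 was subtracted from each Ifng array, and that of the probes off chromosome 11 from each Il4 array. Probes were averaged in 500-kb bins of at least 20 probes, leaving out bins within 1 Mb of the Ifng bait. All 10 Ifng arrays were fitted together with limma 3.58.1 under R 4.3.3 (lmFit, then contrasts moderated by eBayes, two-sided), with Benjamini-Hochberg adjustment over 5021 bins at 0.05. The fit was tested on simulated data with known changes. Runs of neighbouring calls with equal sign were merged, and at most the 4 merged parts with the largest mean change are named per comparison. Comparisons share arrays. The leading digits of array serial numbers (called scan series) served as a possible batch. Members, gene lists and stretches were chosen with earlier results of these data known. Bands came from circlize 0.4.16, and figures from Python 3.11.15, numpy 2.4.6, pandas 2.3.3 and matplotlib 3.10.9. Alternatives were 200-kb and 1000-kb bins, the median per bin, other scalings and centrings, extreme probes left out, other variance settings, blocks, the compared groups alone and each replicate left out.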

Additional observations from a re-analysis of the deposited data

How the results depend on the processing

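The length of the stretch that passed limma's threshold was 5.5 Mb for Th1 over naive, 5.0 for Th2 over naive, 4.0 for Th1 over Th2, 2.5 for Stat4 knockout Th1 over Th1, 5.5 for the knockout over naive, 1.5 for the knockout over Th2 and 6.0 for 3T3-L1 over T cells. Leaving out each replicate in turn gave 5.0 to 5.5, 4.0 to 5.5, 3.0 to 4.5, 0.5 to 2.5, 4.0 to 5.0, 0.0 to 1.0 and 6.0 to 6.5 Mb. In the knockout over Th1, 1.0 Mb without Th1 replicate 2 was all lower, and 0.5 Mb was left without knockout replicate 2. In the knockout over Th2, 1.0 Mb without knockout replicate 2 and 0.5 Mb without Th2 replicate 1 were lower, and 0.0 Mb was left without knockout replicate 1 or Th2 replicate 2.

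Scaling by the spread off chromosome 10 left 2.0 Mb for Th1 over naive (mostly higher), 1.0 for Th2 over naive, 1.5 for the knockout over Th1 (lower), 0.5 over naive and 0.5 over Th2. Centring and scaling on chromosome 10 left 2.0 Mb for Th1 over naive (higher, with changes of 0.37 as the median, 0.35 at 75 to 79.5 and 0.010 at 81.0 to 82 Mb), 0.0 for Th2 over naive, 2.5 for the knockout over Th1 (lower, -0.071 at 75.5 to 76.5 Mb), and 0.0 for the knockout over naive and over Th2. Centring on chromosome 10 left 3.0 Mb for the knockout over Th1, mostly lower, under an adjustment that hardly raised p near the threshold. Quantile normalization left 2.0 Mb (lower) for the knockout over Th1, 3.5 over naive and 0.0 over Th2. The median per bin left 2.5 Mb for Th2 over naive, 0.5 for Th1 over Th2, 0.0 for the knockout over Th1, 2.0 over naive and 0.0 over Th2, and 200-kb bins 2.0 for Th1 over Th2, 0.6 for the knockout over Th1 (mostly lower), 2.8 over naive and 0.4 over Th2. Bins of 1000 kb gave 5.0 Mb for the knockout over Th1, and eBayes with trend and robust settings 0.5, and 0.0 over Th2. Where 0.0 Mb is given, 1 to 8 bins had an unadjusted p under 0.05. The cause of these shifts was not tested.

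Replicate numbers do not pair the samples: deviations of same-numbered arrays correlated at -0.21 to 0.24. With the replicate block 5.5, 5.0, 4.0, 3.0, 5.5, 1.5 and 6.0 Mb passed in the order above. In the knockout over Th1, 2 of the 3 bins at 79.5 to 81.0 Mb were lower with this block on all Ifng arrays, against 1 without. In fits of the compared groups alone, 3 were lower with the block, 3 with crossed numbers and 2 with neither. Crossed numbers, tried after seeing the data where the correlation was under -0.1, gave 10 bins here and 182 in all for the knockout over Th1 (5.0 Mb), 10 and 261 for Th1 over Th2, and 11 and 262 for Th2 over naive. On the same arrays the block without crossing gave 11 and 157, 10 and 137, and 10 and 229 in that order. With the scan series as a block 4.5 Mb passed for Th1 over naive, 3.0 for Th2 over naive and 3.0 for Th1 over Th2. In that fit Th2 and naive cells are linked only through 1 Th1 array in each series. The knockout could not be fitted with the series as a block, since its arrays make up their own series.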
